A study of Mus musculus with 7 samples.

Results

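In single mouse zygotes profiled for H3K4me1, 374 windows of 10 kb stood out as enriched although they overlapped no protein-coding gene. They were chosen from the pool of all deep zygote libraries. A member had at least 20 fragment midpoints from at least 5 libraries, a level of 3 to 10 times the autosomal mean, and no overlap with a protein-coding gene of RefSeq for GRCm38. The members were 374 of the 128145 autosomal windows (bins) outside protein-coding genes, or 0.292%, where 0.505% of all 240328 autosomal bins passed the same level and library limits. These limits also took 840 bins that overlapped protein-coding genes, 0.749% of such bins. Since the level chose the members, their level is given as a description, and the comparisons below concern what the choice did not use: distance to genes, other annotation, fragment length, spread, neighbouring bins and libraries kept out of the choice.

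The series measured a histone mark by CUT&Tag together with the transcriptome in single zygotes, and its 7 samples comprise 2 batches with an antibody against H3K4me1, their 2 transcriptome samples, 2 batches with an antibody against H3K27me3 and 1 further transcriptome sample. CUT&Tag tethers the transposase Tn5 to a mark through an antibody, so that sequenced fragments lie at marked chromatin. Only H3K4me1 was analysed here. The zygotes, labelled as untreated, came from females induced with pregnant mare serum gonadotropin (5 IU) followed after 46 to 48 h by human chorionic gonadotropin (5 IU), and were collected at 23, in a unit not stated, after the second hormone. Cumulus cells and zona pellucida had been removed, and each batch was the zygotes of 1 mouse. The labels of the H3K4me1 samples give no strain, and no genetic change is stated.

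Both H3K4me1 batches were pooled in 1 table of 16 libraries, whose names carry a number 4 or 5 that the labels tie to neither batch. It is therefore treated as 1 sample, with no p-value and no standard deviation. The 14 libraries with at least 5000 fragments, 3 named 4 and 11 named 5, held 7106 to 197312 fragments each, with a median of 96240. The autosomal mean was 5.62 fragments per bin. A level is a multiple of that mean, and all intervals are exact 95% intervals, from the Poisson distribution for a level and by Clopper-Pearson for a share. Counting error is all they include, and PCR reads carrying no molecular identifier are not independent molecules. Summed over gene bodies with 2.5 kb on each side, 10 oocyte markers had a level of 1.64 and ranged from 0.933 to 2.99. The sum was 0.953 for 10 cumulus markers (range 0.257 to 2.63), 1.52 for 10 spermatid markers (0.309 to 3.34) and 1.26 for 6 blood markers (0.556 to 2.68), with no marker at 0. The interval of the oocyte sum (1.41 to 1.89) overlapped those of the spermatid (1.21 to 1.90) and blood (1.06 to 1.49) sums and lay above that of the cumulus sum (0.839 to 1.08).

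H3K4me1, monomethylation of lysine 4 of histone H3, is written mainly by the methyltransferases KMT2C and KMT2D. In somatic cells it marks enhancers, both active and poised, and the flanks of active promoters, often far from any gene. In the zygote, the chromatin of egg and sperm is being rebuilt and transcription of the embryonic genome is only starting. The nearest gene named below is a statement of position, and a bin may bear on another gene or on none.

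All complete promoter windows inside members belonged to long noncoding RNA (lncRNA) genes, as the choice removed protein-coding genes. A promoter window runs from 250 bases before to 50 after a gene's start. Members with a whole window numbered 40, or 10.7% (7.75 to 14.3), against 4.10% of all bins outside genes. Their 49 windows had a median GC content of 52.7% and a median of 3 CpG dinucleotides. The 6312 windows in all bins outside genes had medians of 46.7% and 3, and all 30503 autosomal windows had medians of 53.0% and 7. At least 1 CpG was present in 93.9% of the members' windows, against 91.6% of those in all bins outside genes. No fragment overlapped 11 of the 49 windows, 1 fragment overlapped 19 and at least 2 overlapped the other 19, with at most 5 over any window. Some windows belong to the same gene, as for Gm34502 and Gm34719. These counts are not set beside windows in other bins and describe the members alone. The windows below are shown on the gene's strand, 5′ to 3′, from RefSeq for GRCm38.p6, with each CG in capitals. Myog, the myogenic transcription factor, is shown because its start lay closest to a member of all protein-coding genes, 4 bp beyond the bin's edge, so that 247 of the 300 bases fell inside the bin. The windows of Gm34828 and Gm46579 had the most fragments over them (5 and 4), and Gm33801 lies in the member nearest to Sox8, a transcription factor of neural crest and gonad.
Myog, chr1:134289754-134290053, plus strand: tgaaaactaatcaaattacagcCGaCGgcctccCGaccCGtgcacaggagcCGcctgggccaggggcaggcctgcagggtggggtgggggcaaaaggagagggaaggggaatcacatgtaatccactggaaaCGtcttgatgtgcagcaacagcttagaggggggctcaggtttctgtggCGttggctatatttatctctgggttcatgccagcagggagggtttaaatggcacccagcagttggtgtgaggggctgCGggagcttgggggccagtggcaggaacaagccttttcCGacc
Gm34828, chr9:61826746-61827045, minus strand: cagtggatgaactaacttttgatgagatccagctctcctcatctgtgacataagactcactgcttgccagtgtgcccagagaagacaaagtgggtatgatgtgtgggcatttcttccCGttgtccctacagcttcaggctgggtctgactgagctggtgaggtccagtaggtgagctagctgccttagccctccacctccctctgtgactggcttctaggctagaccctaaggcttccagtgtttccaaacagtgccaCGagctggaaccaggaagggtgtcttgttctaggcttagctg
Gm46579, chr17:47711364-47711663, plus strand: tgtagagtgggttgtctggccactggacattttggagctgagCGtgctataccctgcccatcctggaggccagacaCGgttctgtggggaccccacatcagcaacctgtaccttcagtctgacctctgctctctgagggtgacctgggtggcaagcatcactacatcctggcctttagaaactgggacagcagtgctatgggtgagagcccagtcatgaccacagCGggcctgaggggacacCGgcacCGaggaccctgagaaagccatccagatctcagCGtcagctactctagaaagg
Gm33801, chr17:25539645-25539944, minus strand: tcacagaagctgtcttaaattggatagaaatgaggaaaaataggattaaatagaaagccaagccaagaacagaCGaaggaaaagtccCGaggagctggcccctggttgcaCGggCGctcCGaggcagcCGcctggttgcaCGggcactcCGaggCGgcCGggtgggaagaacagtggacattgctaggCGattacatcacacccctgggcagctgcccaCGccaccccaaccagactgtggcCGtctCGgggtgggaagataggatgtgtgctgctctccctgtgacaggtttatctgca
These windows held 9 CpG for Myog, 2 for Gm34828, 6 for Gm46579 and 14 for Gm33801. The printed windows thus included CpG counts on both sides of the median of all autosomal windows. Over the Myog window itself there were 2 fragments from 2 libraries, of 20 fragments in the whole bin.

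The members' levels sat close to the limit that chose them. Fragments per member ranged from 20 to 54 with a median of 22, equal to levels of 3.56 to 9.61 with a median of 3.91. Exactly 20 fragments were found in 118 members (31.6%), and 31 members had 30 or more. Fragments came from 5 to 14 libraries with a median of 10, and 216 members had at least 10. Because 3 times the mean equals 16.9 fragments, the minimum of 20 set the lower limit at 3.56. Just below it, 169 bins outside genes had 19 fragments (level 3.38), 205 had 18 (3.20) and 342 had 17 (3.02), among them bins nearest to Cnnm4, Tbc1d8, Rfx8, Dis3l2 and Spp2 at 19 fragments. The first bins at 20 fragments in genome order were nearest to Gli2, Inhbb, Mapkapk2, Sox13 and Fmod. There was thus no gap in level between members and bins just outside. Pooled, the members held 8724 fragments, 0.646% of autosomal fragments on 0.156% of bins, at a level of 4.15 (4.06 to 4.24). The 840 enriched bins inside genes had 4.02 (3.96 to 4.07), and the remaining bins outside genes had 0.838.

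The members lay closer to protein-coding genes than bins outside genes did as a whole. Their median distance was 31.9 kb (25.5 to 37.1 by binomial ranks), with quartiles of 10.7 and 80.2 kb and a range of 4 bp to 681 kb, against a median of 101 kb (99.7 to 102) for all bins outside genes. Within 10 kb of a gene lay 24.3% of members (20.1 to 29.0), against 13.3% of all bins outside genes. Within 50 kb the shares were 63.4% of members (58.3 to 68.3) and 36.4% of all bins outside genes. The share of bins called was 0.535% under 10 kb (91 of 17008), 0.494% at 10 to 50 kb (146 of 29576), 0.372% at 50 to 100 kb (64 of 17218), 0.162% at 100 to 500 kb (72 of 44441) and 0.00502% beyond 500 kb (1 of 19902). The interval of the class at 100 to 500 kb, 0.127 to 0.204%, lay below those of the nearer classes, which overlapped one another. The level of all bins moved with distance in the same direction, from nearest to farthest 1.02, 0.991, 0.956, 0.801 and 0.540, and its part in the result was not tested. Where the gene's strand was known, 56.6% of 288 members (50.7 to 62.4) lay on the side of the gene's start, against 53.5% of 99403 bins outside genes, a difference within the members' counting interval.

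**Figure D1:**
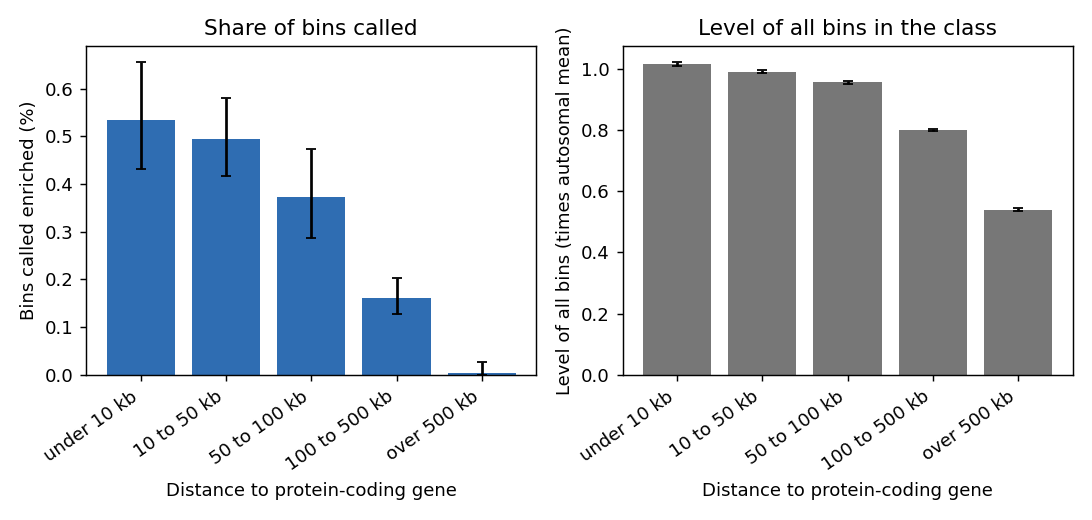
Share of bins outside genes called enriched (left, percent) and level of all bins (right, multiples of the autosomal mean) by distance to the nearest protein-coding gene, as bars with exact 95% counting intervals. The called share was 0.535% under 10 kb and 0.00502% beyond 500 kb, while the level of all bins was 1.02 and 0.540 in the same classes.

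Other annotated genes were more often found in members. An lncRNA gene overlapped 113 members, or 30.2% (25.6 to 35.1), against 16.8% of all bins outside genes. The direction was the same in each class of distance up to 500 kb. The share was 31.9% of members against 18.9% of all bins under 10 kb, 30.1% against 21.0% at 10 to 50 kb, 37.5% against 20.1% at 50 to 100 kb, and 22.2% against 15.9% at 100 to 500 kb. Only at 100 to 500 kb did the members' interval (13.3 to 33.6) reach the share of all bins. Pseudogenes overlapped 4.55% of members (2.67 to 7.18) against 6.26% of all bins outside genes, and small RNA genes overlapped 1.60% (0.591 to 3.46) against 1.11%, both within counting error. Among the 6 members with a small RNA gene was the bin 54.5 kb from Gata5 that holds Mir133a-2, a muscle microRNA gene, and its host Mir1a-1hg. That bin had 0 to 4 fragments per library with a median of 1.5, 21 in all, and a level of 3.74 (2.31 to 5.71).

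The members took more than 1 form. The share of a member's fragments in its fullest step of 1 kb ranged from 13.6 to 100% with a median of 26.0%, against a median of 25% in enriched bins inside genes. After these shares had been seen, the members were split at 50% into 57 compact and 317 spread bins. The fullest step held at least 50% of fragments in 57 of the 374 members, against 45 of the 840 enriched bins inside genes. Compact bins had a median level of 4.45, and 21 of the 57 had 30 or more fragments. Spread bins had a median level of 3.74, and 10 of the 317 had 30 or more fragments. The highest levels were therefore mostly compact bins: of the 24 members at the 20 highest ranks, ties included, 17 were compact and 7 spread.

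Fragment length differed between the forms. Fragments under 120 bp, shorter than the DNA wound on a nucleosome, made up 47.8% (45.3 to 50.2) of fragments in compact bins and 6.01% (5.47 to 6.59) in spread bins, against 3.92% (3.87 to 3.97) in the remaining bins outside genes. The median fragment was 129 bp in compact bins and 303 bp in spread bins, against 325 bp in the remaining bins outside genes. In 24 compact bins at least 50% of fragments were short, while the highest share in a spread bin was 38.9%. All members together had 13.8% short fragments (13.1 to 14.5), against 8.98% (8.58 to 9.39) in enriched bins inside genes. The excess in spread bins was small but recurred: of the 13 libraries above 20000 fragments, 12 had a higher short share in spread bins than in the remaining bins outside genes, and the interval lay above it in 9.

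**Figure D2:**
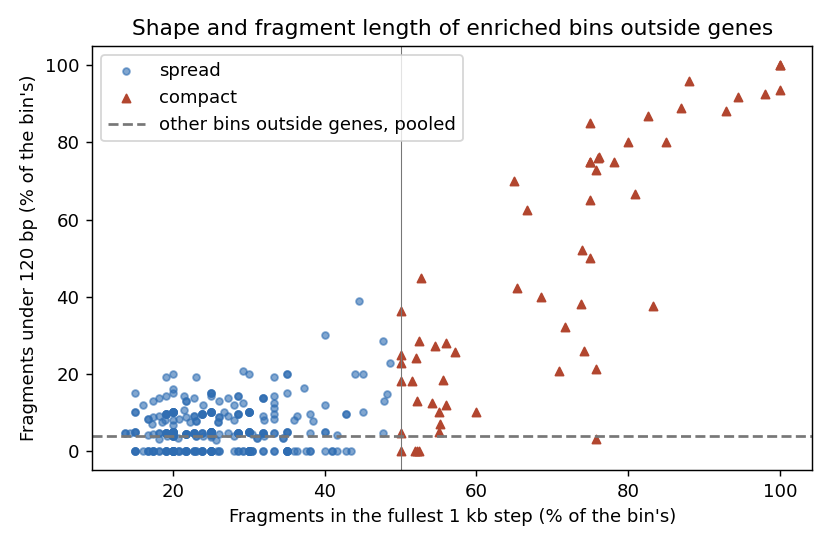
Each point is 1 enriched bin outside genes, by the share of its fragments in its fullest 1 kb step (x axis, percent) and the share shorter than 120 bp (y axis, percent). Compact bins (57, triangles) reach 100% short fragments, spread bins (317, circles) stay at or below 38.9%, and the dashed line marks 3.92% in the remaining bins outside genes.

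Fragments of a single library also piled up more often in compact bins. The limit used here was 4, the copies of a unique base in a diploid cell after DNA replication. More than 4 fragments of 1 library covered the same base in 46 members, 12.3% (9.15 to 16.1), and the cause was not tested. The share was 36.8% of compact bins (21) and 7.89% of spread bins (25). It was 5.48% (46 bins) in enriched bins inside genes, which were not split by form here. The contrast between the forms is not separate from their split. By that split, compact bins have at least 50% of fragments within 1 kb, and they more often had 30 or more fragments. More than 2 fragments of 1 library over a base occurred in 54.8% of members (49.6 to 59.9) and 39.9% of enriched bins inside genes (36.6 to 43.3). The choice left out 21 bins outside genes above 10 times the mean. These had a pooled level of 36.6, 95.3% short fragments, a median of 98.0% of fragments in the fullest 1 kb step, and more than 4 fragments of 1 library over a base in all 21. The nearest of them to the upper limit had levels of 11.6, near Alkbh8, and 11.9, near Csf2ra.

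Compact bins lay farther from genes and overlapped lncRNA genes less often than spread bins, but the intervals overlapped. Compact bins lay a median of 60.9 kb (30.2 to 92.0) from a protein-coding gene, spread bins 29.3 kb (23.0 to 34.9) and all bins outside genes 101 kb. The intervals of the forms overlapped, and the interval of each lay below the median of all bins. Within 50 kb of a gene lay 27 compact bins (47.4%) and 210 spread bins (66.2%). An lncRNA gene overlapped 19.3% of compact bins (10.0 to 31.9) and 32.2% of spread bins (27.1 to 37.6). The intervals overlapped here as well, which does not show that the forms were alike.

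**Figure D3:**
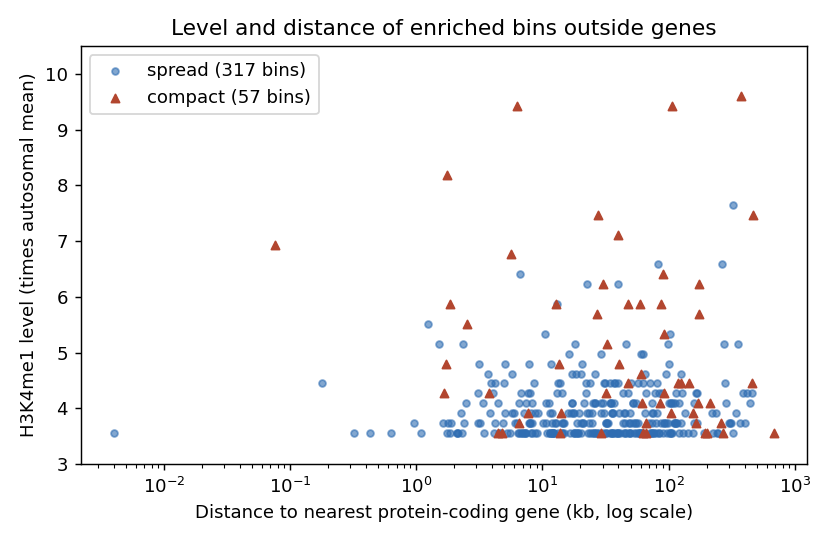
Level of each enriched bin outside genes (y axis, multiples of the autosomal mean) by its distance to the nearest protein-coding gene (x axis, kb, log scale). Levels run from 3.56 to 9.61 at distances of 4 bp to 681 kb, and most bins above 7 are compact (triangles) rather than spread (circles).

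The member with the highest level was compact and far from any gene. It lay on chromosome 3 (21690001 to 21700000), 376 kb from Tbl1xr1, which encodes a subunit of NCoR corepressor complexes, and had a level of 9.61 (7.22 to 12.5). All 14 libraries had fragments there, from 2 to 7 with a median of 3.5, and 88.9% were short. The bins on both sides had a mean level of 0.356. Next came the bins nearest to Fam43a and Gm45871, each with 53 fragments, from 0 to 11 and from 0 to 12 per library, and a level of 9.43 (7.06 to 12.3). The bin near Fam43a had 32.1% short fragments and the bin near Gm45871 92.5%, so that compact bins were not all made of short fragments.

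The bin 1.74 kb from Tcstv3, a member of a multi-copy family expressed at the 2-cell stage, had a level of 8.18 (5.99 to 10.9). Its 46 fragments came from all 14 libraries, with 1 to 11 each and a median of 3. All of them fell in 1 step of 1 kb, 93.5% were short, and up to 9 fragments of 1 library covered the same base. The bin near Sucla2, a subunit of the mitochondrial succinyl-CoA ligase, lay 464 kb from it and had a level of 7.47 (5.39 to 10.1) with 88.1% short fragments. The bin near Lipc, hepatic lipase, had the same level with 38.1% short fragments, and 73.8% of its fragments in the fullest 1 kb step. The bin 76 bp from Gm20939 had only short fragments, 39 in number, and a level of 6.94. The bin near Dach1, a transcription cofactor of the dachshund family, had a level of 6.41 with neighbours at 0.178. Bins near Stt3b, a catalytic subunit of oligosaccharyltransferase, and Kcnj5, an inward rectifier potassium channel, had 7.12 and 6.76.

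Compact bins with mainly long fragments were also among the highest. The bin 1.85 kb from Sfi1, which encodes a centrosome protein, overlapped the pseudogene Pisd-ps1 and had a level of 5.87 (4.04 to 8.25). Its fragments had a median length of 378 bp, 75.8% of them lay in 1 step of 1 kb, and its neighbours had 3.83. The bin on chromosome 12 from 113420001 to 113430000, 59.6 kb from Adam6b, overlapped the joining segments and the Ighm constant region of the immunoglobulin heavy chain locus, which the annotation does not class as protein-coding. It had the same level, with 0 to 10 fragments per library, a median of 1, and 27.3% short fragments. The members near Kif6, a kinesin, and Matn1, a cartilage matrix protein, had 6.23 with 40.0% and 25.7% short fragments. Slc22a12, the urate transporter, and Snrk, a kinase, were nearest to further compact bins at 5.87, with 21.2% and 18.2% short fragments. The bin near Chst2, a sulfotransferase, had the same level with 72.7% short fragments.

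The spread members with the highest levels were of 2 kinds, at the starts of chromosome sequences and near genes. Near genes, the bin 6.65 kb from Ptpn12, a tyrosine phosphatase, had 0 to 6 fragments per library with a median of 3, and a level of 6.41 (4.49 to 8.87). The bin 39.8 kb from Ccny, cyclin Y, had 0 to 8 with a median of 2, and a level of 6.23 (4.34 to 8.66). Only 2.86% of its fragments were short and its neighbours had 3.56, and the adjoining bin was a member too. The bin 13.1 kb from Zfp982, a zinc finger gene, had 5.87, and the bin 1.23 kb from Ilrun had 5.52. In the bins near Ccny, Zfp982 and Ilrun the fullest 1 kb step held 18.2 to 25.8% of fragments. In the bin near Ptpn12 it held 44.4%, and 38.9% of the fragments were short, the highest share in a spread bin. A share under 50% in that step is what defines a spread bin.

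At the starts of chromosome sequences, 12 members lay within 1 Mb of the first fragment, on 5 chromosomes. They were among 1047 bins outside genes there, where the genome as a whole had 374 members in 128145 such bins. The member near Sfi1 was compact and the others were spread. More than 4 fragments of 1 library covered the same base in 2 members, near Sfi1 (5) and from 3000001 on chromosome 9 (7). The levels of the 12 members ranged from 3.74 to 7.65 with a median of 5.16. Chromosome 9 held 4 of them between 3000001 and 3070000, at least 265 kb from Alkbh8, a tRNA methyltransferase, and the bin from 3020001 to 3030000 exceeded the upper limit at 11.6. Over the whole 70 kb stretch the level was 5.39 (4.69 to 6.16), and in single libraries above 20000 fragments its median was 5.35, the lowest value 2.09 (library 4-5) and the highest 10.8 (library 5-9). These libraries took part in choosing the members, so that their values are a description. Chromosome 4 held 3 members near Vmn1r2, a vomeronasal receptor gene, with levels of 3.74, 5.34 and 6.58. Chromosome 17 held 2 near Scaf8, at 4.63 and 3.91.

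Neighbouring bins were raised around most members. The mean of the 2 adjoining bins had a median of 1.78 over members, against 0.712 over all bins outside genes. It was at least 1 in 332 members (88.8%), against 30.6% of all bins outside genes, and at least 2 in 152 members. Around spread bins the pooled level was 2.02 and 2.04 at 10 kb on either side and 1.64 and 1.62 at 100 kb. Around compact bins it was 1.29 on both sides at 10 kb, and 1.31 and 1.21 at 100 kb. The adjoining bins were at 1 or above in 301 spread bins (95.0%) and 31 compact bins (54.4%). These neighbours include bins inside genes. Over neighbours outside genes alone, the level around all members was 1.505 and 1.523 at 100 kb. By form, it was 1.59 and 1.63 around spread bins and 1.10 and 1.12 around compact bins. The level at 100 kb was thus above that of all bins outside genes around both forms. Over all neighbours, the level was lower at 100 kb than at 10 kb around spread bins, and not distinguishable between these distances by the intervals around compact bins.

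**Figure D4:**
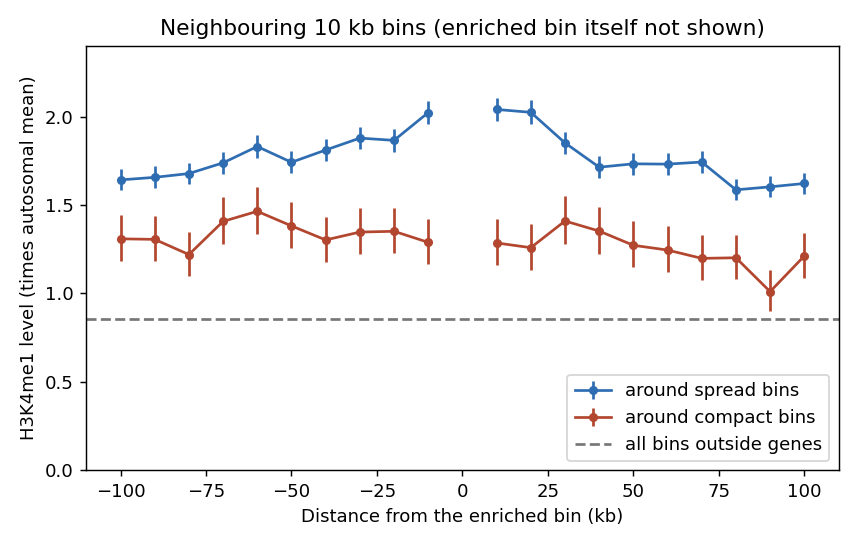
Pooled level of 10 kb bins at 10 to 100 kb on either side of spread and compact enriched bins (y axis, multiples of the autosomal mean, with exact 95% Poisson intervals), the enriched bin itself not shown. Around spread bins the level was 2.02 and 2.04 next to the bin, around compact bins 1.29 on both sides, and the dashed line is all bins outside genes at 0.854. The neighbours plotted include bins inside genes.

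Adjoining members were few. The 374 members formed 356 runs, of which 340 were single bins, 14 held 2 and 2 held 3. The 3-bin runs lay near Olfm1, which encodes the neuronal glycoprotein noelin, on chromosome 2 from 28240001 to 28270000, with a pooled level of 3.80 (2.92 to 4.85), and in the chromosome 9 stretch near Alkbh8, with 5.28 (4.24 to 6.50). Pairs of adjoining members included those near Hjurp and Trpm8 (4.71), Gata5 (3.65), Zfp982 (5.07), Nkx1-1 (4.36), Fam53a (4.71), Sik1 (4.00) and Ccny (4.98). Pooled over a run, the intervals were narrower than for a single bin, as at Ccny with 3.76 to 6.47.

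Members also gathered over larger stretches. With gaps of up to 250 kb, 7 stretches held 4 or 5 members, a criterion chosen after the values were seen. The values of single libraries in them are a description, since the same libraries chose the members. The largest number, 5, lay on chromosome 5 from 33470001 to 33710000, near Nkx1-1, a homeobox gene, Fam53a and Fgfr3, a fibroblast growth factor receptor. Its members had levels of 3.56 to 5.16 and at most 10.7% short fragments. Those near Fgfr3 and at 33480001 near Nkx1-1 had no fragment in libraries named 4, unlike the others. In that Nkx1-1 bin up to 7 fragments of 1 library covered the same base. The whole 240 kb, genes included, had a level of 2.93 (2.65 to 3.23). In single libraries above 20000 fragments the median was 3.04, the lowest value 2.27 (library 5-8) and the highest 4.32 (library 5-1). Near Trabd2b and the forkhead genes Foxd2 and Foxe3 on chromosome 4, 220 kb had a level of 2.27 (2.01 to 2.55), with single libraries from 1.12 to 5.06. Near Zc3h12a, which encodes the ribonuclease regnase, and Grik3, a kainate receptor subunit, 260 kb had 2.18 (1.94 to 2.43), with libraries from 1.26 to 3.37. Near Adgrd1, an adhesion receptor, and Sfswap, a splicing regulator, 230 kb had 2.39 (2.13 to 2.67), with libraries from 1.27 to 4.14. Near Cryaa, a lens crystallin, Sik1, a salt-inducible kinase, and Rrp1b, 400 kb of chromosome 17 had 1.74 (1.57 to 1.92), with libraries from 0.800 to 2.16. At Olfm1 single libraries ranged widely, with 0 in library 5-9 and 9.35 in library 4-5.

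The nearest genes were many. The 374 members were nearest to 321 protein-coding genes, and 37 genes were nearest to at least 2 members that did not adjoin. Grik3 had 4 members, 3 of them separate, with levels up to 3.91 at 15.8 to 136 kb. The uncharacterised 4930591A17Rik had 3 separate members at 54.9 to 405 kb. Smad6, an inhibitory Smad of the BMP pathway, had members at 3.08 and 37.9 kb with levels of 3.74 and 4.45, and Lipc had members at 7.78 and 27.8 kb. A gene with many intergenic bins nearest to it has more chances: Olfm1 had 15 such bins, Grik3 33 and Lipc 7.

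Of 10 gene lists for development, the egg and other cells, a listed gene was nearest to 23 members, 6.15% against 3.09% of all bins outside genes, and lay within 50 kb of 12 of them, 3.21% against 1.06%. Developmental regulators were nearest to 11 members, 2.94% against 1.39% of all bins outside genes, and within 50 kb to 6, 1.60% against 0.393%. The contrast was smaller without the limit of 50 kb, and members as a whole lay closer to genes. Those within 50 kb were Gata5, a cardiac and endodermal GATA factor, with bins at 4.50 and 14.5 kb (levels 3.56 and 3.74), Six2, the kidney progenitor factor, at 1.75 kb (3.56), Tbx5, the heart and forelimb factor, at 4.78 kb (3.56), Sox8 at 25.9 kb (4.09) and Lhx2, a forebrain LIM homeobox gene, at 30.3 kb (4.09). Libraries held 0 to 6 and 0 to 4 fragments in the Gata5 bins, 0 to 4 in the Six2 bin, 0 to 8 in the Tbx5 bin, 0 to 5 in the Sox8 bin and 0 to 9 in the Lhx2 bin. Each of these bins was without a fragment in at least 1 library, and their lower ends were 2.17 to 2.59.

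The zygotic genome activation list had 2 members within 50 kb, near Tcstv3 and Zfp640 (29.2 kb, level 4.09), 0.535% of members against 0.146% of all bins outside genes. The preimplantation lineage list had 5 members at any distance, 1.34% against 0.473% of all bins outside genes, near Tbx3, Tfap2c and Gata6, and 1 of them within 50 kb. The other listed genes within 50 kb had 1 member each, or 0.267% of members. They were Tbx3, a T-box factor of the preimplantation list (40.5 kb, level 3.91, list share of all bins outside genes 0.140%), Ywhaz, a 14-3-3 protein of the housekeeping list (30.3 kb, 3.56, 0.0320%), Slc22a2, an imprinted organic cation transporter (1.51 kb, 5.16, 0.130%), and Inhbb, an inhibin subunit of the cumulus and granulosa list (25.5 kb, 3.56, 0.108%). The bin near Slc22a2 had 0 to 8 fragments per library with a median of 1 and 3.45% short fragments. No gene of the oocyte, spermatid, blood or mammary epithelium lists was nearest to a member within 50 kb. Those lists hold 0.0507%, 0.0359%, 0.0164% and 0.0632% of all bins outside genes, so that less than 1 of 374 bins would be there at the same share. Beyond 50 kb, Epcam of the mammary list (66.0 kb) and Kit of the oocyte and mammary lists (73.3 kb) were each nearest to a member with a level of 3.74. The numbers per list are small, and no list is called particular to the members from them.

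The members farthest from a protein-coding gene were of both forms. The bin 681 kb from Marcks, which encodes a protein kinase C substrate, had 0 to 3 fragments per library, a level of 3.56 (2.17 to 5.50) and 80.0% short fragments. The bin 458 kb from Zmiz1, a transcriptional coactivator, was spread, with a level of 4.27 (2.74 to 6.35), 4.17% short fragments and neighbours at 2.76. The bin 455 kb from Diaph3, a formin, was compact with 96.0% short fragments. The bin 444 kb from Mki67, the proliferation marker, was spread and overlapped the lncRNA gene Gm36675.

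Members were uneven over chromosomes. The called share was highest on chromosome 17 at 0.642% (30 members), with 0.570% on chromosome 4 (47), 0.562% on chromosome 2 (48), 0.469% on chromosome 9 (27) and 0.456% on chromosome 5 (34). It was lowest on chromosome 10 at 0.0592% (4), chromosome 3 at 0.102% (10) and chromosome 14 at 0.131% (9). The intervals of chromosome 17 (0.433 to 0.915) and chromosome 10 (0.0161 to 0.152) did not overlap. The level of the other bins outside genes was 0.857 on chromosome 17, 0.782 on chromosome 10, 0.760 on chromosome 3 and 0.738 on chromosome 14. It did not follow the called share throughout, as chromosome 11 had the highest level, 0.973, with 0.281% called, and chromosome 19 had 0.888 with 0.193% called. Its part in the order was not tested.

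Libraries that had no part in choosing the bins were also enriched there. When the rule was applied to the 11 libraries named 5 alone, it took 113 bins. The minimum number of fragments was kept, so the lower limit was a level of 4.33, against 3.56 in the full pool. The number of bins and their level are therefore not at the limit of the main choice. In the 113 bins the 3 libraries named 4 reached 3.81 (3.46 to 4.18), against 0.850 in all other bins outside genes. At least 4 fragments in the libraries named 4, a level whose interval lies above 1, were found in 56 of the 113 bins (49.6%, 40.0 to 59.1), and 3.69% of all bins outside genes passed that limit. In 9 of the 113 bins these libraries had no fragment. In these libraries the 33 compact bins stood at 4.96 (4.23 to 5.78) and the 80 spread bins at 3.33 (2.94 to 3.76). With short fragments left out of both choice and measurement, 61 bins had 2.93 (2.51 to 3.41), against 0.859 in the other bins outside genes. Enrichment in libraries not used for the choice was thus found in both forms and with long fragments alone. Mappability and repeats of the bins were not examined, and their part in this recurrence was not tested.

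Enrichment in bins chosen by other libraries was also found library by library. With each library in turn kept out of the choice, its level in the bins taken by the rest ranged, over the 13 libraries above 20000 fragments, between 2.10 (library 5-6) and 4.26 (library 5-5), and the median was 3.12. All 13 intervals lay above 1, while the other bins outside genes had 0.822 to 0.872. The shallowest kept library, 5-11, had 6.50 (5.03 to 8.27). The held-out levels fell short of the level of 4.15 that the choice gave in the full pool. Library 5-5 and the shallow library 5-11 were exceptions. With a library kept out the lower limit was higher than in the full pool, as the minimum number of fragments stayed the same. Over all 374 members, which both sets of libraries helped to choose, the level was 4.79 (4.57 to 5.01) for libraries named 4 and 4.01 (3.92 to 4.11) for libraries named 5.

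**Figure D5:**
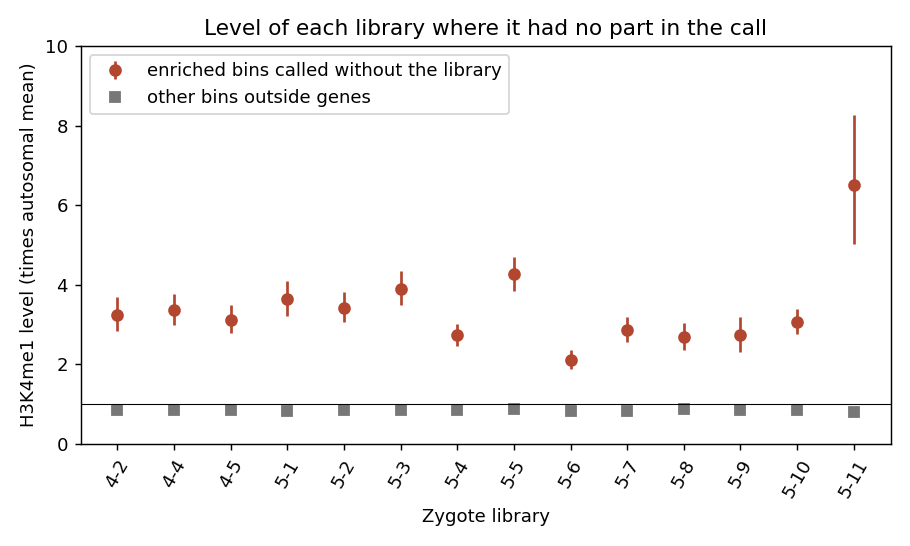
Level of each of the 14 zygote libraries in enriched bins outside genes that were called without it (circles, with exact 95% Poisson intervals) and in the other bins outside genes (squares), in multiples of the autosomal mean. The called bins had 2.10 to 4.26 in 13 libraries and 6.50 in library 5-11, all above 1 (line), and the other bins lay below 1 in every library.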

How the data were processed

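Per the labels, the H3K4me1 fragments of single zygotes were deposited by the authors as 1 table of both batches, with a line per fragment, its library name and a count. The deposited count was 1 in all 1424363 lines, so lines were counted here, and 5 lines repeated another. The submitters' processing notes name build mm10. Aligner, duplicate removal, filters and Tn5 shift were not given in the sources used here. Libraries under 5000 fragments (2, with 68 and 672) were left out. Starts were taken as 0-based. A fragment was counted at its midpoint in 10 kb bins, and the mean used 1350664 autosomal fragments over the span from first to last fragment. Distances run between the nearest edges of bin and gene. Gene types and positions came from RefSeq for GRCm38.p6 (21887 protein-coding genes, 17492 with a strand), and promoter windows from its sequence table. Named bins were those with the 20 highest levels, the 5 on each side of a limit, the 5 farthest from a gene, runs of 3, those within 50 kb of a listed gene, and repeated nearest genes. A bin that this rule names is not reported here. The others named were chosen after their values were seen. Members and lists were chosen with earlier results of these data known. Calling was tested on simulated data. Alternatives covered threshold, bin size and grid, gene set, mean, library weighting, overlap limits, fragment length and left-out libraries. Python 3.11.15, numpy 2.4.6, pandas 2.3.3, scipy 1.17.1 and matplotlib 3.10.9 were used.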

Additional observations from a re-analysis of the deposited data

Results flagged for a closer look

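Library 4-1, with 643 autosomal fragments, was below the minimum depth and had no part in any comparison. It had 8 fragments in the 374 enriched bins, a level of 7.99 (3.45 to 15.8), and was singled out because this lies above the level that 3 fragments would give, 3.00. Library 4-3, with 67 autosomal fragments, had 1 fragment there (ratio 9.59, interval 0.243 to 53.4). The 8 fragments of library 4-1 lay in bins nearest to Adgrl2, Gm39469, Kcnh8, Marcks, Rps6kc1, Tbl1xr1 and Zfp637. At least the bins near Adgrl2, Kcnh8, Marcks, Tbl1xr1 and Zfp637 were compact, and the bin near Gm39469 was spread. The fragment of library 4-3 lay in the compact bin near Rbfox1. The level of library 4-1 is thus not a value for spread bins.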

How the results depend on the processing

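No paired analysis was possible because the table pools both batches and its libraries carry no replicate number of the labels. Depth limits most members, since a bin at 20 fragments has an interval of 2.17 to 5.50. Under the alternatives run, the median distance stayed below the 101 kb of all bins outside genes and the level of adjoining bins above 1. The number of bins, 374, was 150 at 4 times the mean, 2628 with 5 kb bins, 240 outside genes of any type, 88 with each library counted once per 1 kb, 113 in libraries named 5 only and 240 with fragments of at least 120 bp. Without 1 library each it ranged from 184 to 360: 232 without 4-5, 233 without 5-2, 242 without 5-3, 184 without 5-4, 215 without 5-5, 219 without 5-6, 195 without 5-7 and 219 without 5-10. The level, 4.15, was 4.86 at 4 times the mean, 4.27 once per 1 kb, 5.21 in libraries named 5, 4.24 with long fragments, 4.02 without bins of more than 4 overlapping fragments and 3.98 without compact bins (without 1 library 4.16 to 4.92). The median distance, 31.9 kb, was 39.4 kb with bins at least 5 kb from genes, 24.3 kb once per 1 kb and 40.6 kb in libraries named 5 (29.7 to 35.6 kb). The share within 10 kb was 12.9% with bins at least 5 kb from genes, which removes near bins by construction, and 19.5% in libraries named 5 (20 to 25.9%). The share of short fragments, 13.8%, was 19.6% at 4 times the mean, 7.21% with 5 kb bins, 10.95% with libraries weighted equally, 12.7% relative to the mean outside genes, 15.2% outside genes of any type, 22.8% in libraries named 5, 0% with long fragments, 10.1% without bins of more than 4 overlapping fragments, 6.01% without compact bins and 12.9% in libraries above 20000 fragments (12.9 to 17.4%). The share with more than 4 overlapping fragments was 20% at 4 times the mean, 4.19% with 5 kb bins, 0% once per 1 kb, 23.9% in libraries named 5, 0% without such bins, 7.89% without compact bins and 54.8% at a limit of 2 (11.6 to 17.4%). The share with an lncRNA gene was 25% with 5 kb bins, 0% outside genes of any type and 23.0% in libraries named 5 (26.0 to 30.8%). The median level of adjoining bins was 1.96 on a grid shifted by 5 kb, 1.60 with 5 kb bins and 1.87 with long fragments (1.68 to 1.92). The level in libraries named 4 was 3.21 on the shifted grid, 2.93 with long fragments and 3.33 without compact bins. The settings on fragment length, overlap, compact bins and depth above 20000 were chosen after seeing the data. The minimum of 20 fragments was kept when libraries or fragments were left out, which raised the lower limit. In libraries named 5 that limit stood at a level of 4.33, against 3.56 in the full pool. Number and level under these settings are therefore not at the limit of the main choice. The values of 0% hold by construction. Other causes of these differences were not tested.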
